A study of Mus musculus with 14 samples.

Results

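The genes described here encode the conjugating enzymes of the Ugt, Sult and Gst families, which attach glucuronic acid, sulfate or glutathione to drugs, hormones, bile pigments and reactive by-products of metabolism. They were taken by symbol: every probe set with a single gene symbol in the platform table that named a Ugt1, Ugt2 or Ugt3 gene, a numbered Sult gene, or a Gsta, Gstm, Gstp, Gstt, Gsto, Gstk, Gstz or Mgst gene was kept, and each gene was represented by its probe set with the highest mean level. This gave 40 genes of 12393 measured, made up of 8 glucuronosyltransferases (6 Ugt2 and 2 Ugt3), 11 sulfotransferases, 18 cytosolic glutathione transferases and 3 microsomal ones. The 52 probe sets of these genes left 30 genes with 1 probe set and 10 with several. No Ugt1 gene was among them, because the probe sets for that family were annotated to several genes at once.

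The 14 arrays, Affymetrix Mouse 430Av2, measured RNA of mouse hepatoblasts, the fetal liver progenitors of hepatocytes and bile duct cells. The cells were from wild-type embryos at day 14, had been immortalised by plating at clonal density, and carried constructs under a doxycycline-inducible system, as labelled. On plates coated with rat tail collagen there were 5 groups: empty vector, IDH1 in its wild-type and R132C forms, and IDH2 in its wild-type and R172K forms. A further 2 groups, vector and IDH1 R132C, were grown without a coating. Each group had 2 cultures, and all were kept in the same medium with serum, epidermal growth factor, insulin-like growth factor II and insulin. Doxycycline at 25 ng/mL was given in the IDH1 experiments, without a statement for the vector and IDH2 cultures, and cells went onto uncoated dishes for up to 5 days, the setting that the protocol names for hepatocyte differentiation. IDH1 and IDH2 turn isocitrate into 2-oxoglutarate, and the R132C and R172K forms turn 2-oxoglutarate into 2-hydroxyglutarate instead. The sources used here do not say how many clonal lines the cultures came from, so the p-values below measure the spread between these cultures.

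The values are log2 of the RMA intensity. A level at or under log2 4.80, the highest lower quartile among the 14 arrays, is called near background here, and the array medians lay between 7.07 and 7.21. Across genes the 2 arrays of a group correlated at r = 0.994 (R172K) to 0.998. Of 9 hepatoblast markers, 8 lay above the background mark in every group and Prox1 did not (group means 3.03 to 3.26). Most hepatocyte markers did not, since 2 or 3 of the 9 measured were above it in any group and albumin had group means of 4.34 to 4.93. Intestinal markers were present, with Cdx2 at group means of 9.44 to 11.32 and Lgals4 at 9.98 to 13.76. In RNA from whole cultures, fewer cells of a type and less RNA per cell cannot be told apart.

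Glucuronosyltransferases sit in the endoplasmic reticulum and use UDP-glucuronic acid, sulfotransferases work in the cytosol with the activated sulfate donor PAPS, and glutathione transferases use glutathione against electrophiles and peroxides. All of these families are prominent in mature hepatocytes, and several members are also active in the intestinal lining. In liver, nuclear receptors, the aryl hydrocarbon receptor, NRF2 and hepatocyte transcription factors are known to act on many of their genes.

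On uncoated plates conjugating enzyme genes rose and none fell. On collagen 19 of the 40 lay near background in vector and in R132C cells, where a fall is hard to see. In vector cells 14 of the 40 were higher than on collagen with limma's adjusted p under 0.05 (called, in what follows), where 15.1% of all genes were higher and 14.2% were lower. In R132C cells 14 of the 40 rose as well, against 13.6% of all genes higher and 12.3% lower. For 3 of these 14 both group means lay near background, and the count was 9 without R132C collagen replicate 2 or without R132C uncoated replicate 2. In vector cells the largest changes were those of the sulfotransferase Sult1d1, the glucuronosyltransferases Ugt2b5 and Ugt2b34 and the microsomal transferase Mgst1. The response of Sult1d1, Ugt2b5 and Sult1a1 was smaller in R132C than in vector cells by a test of the difference itself. On collagen the levels lay close together across the IDH forms, with 19 or 20 of the 40 members near background in each group. No member passed the test between a mutant and its own wild type.

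**Figure D1:**
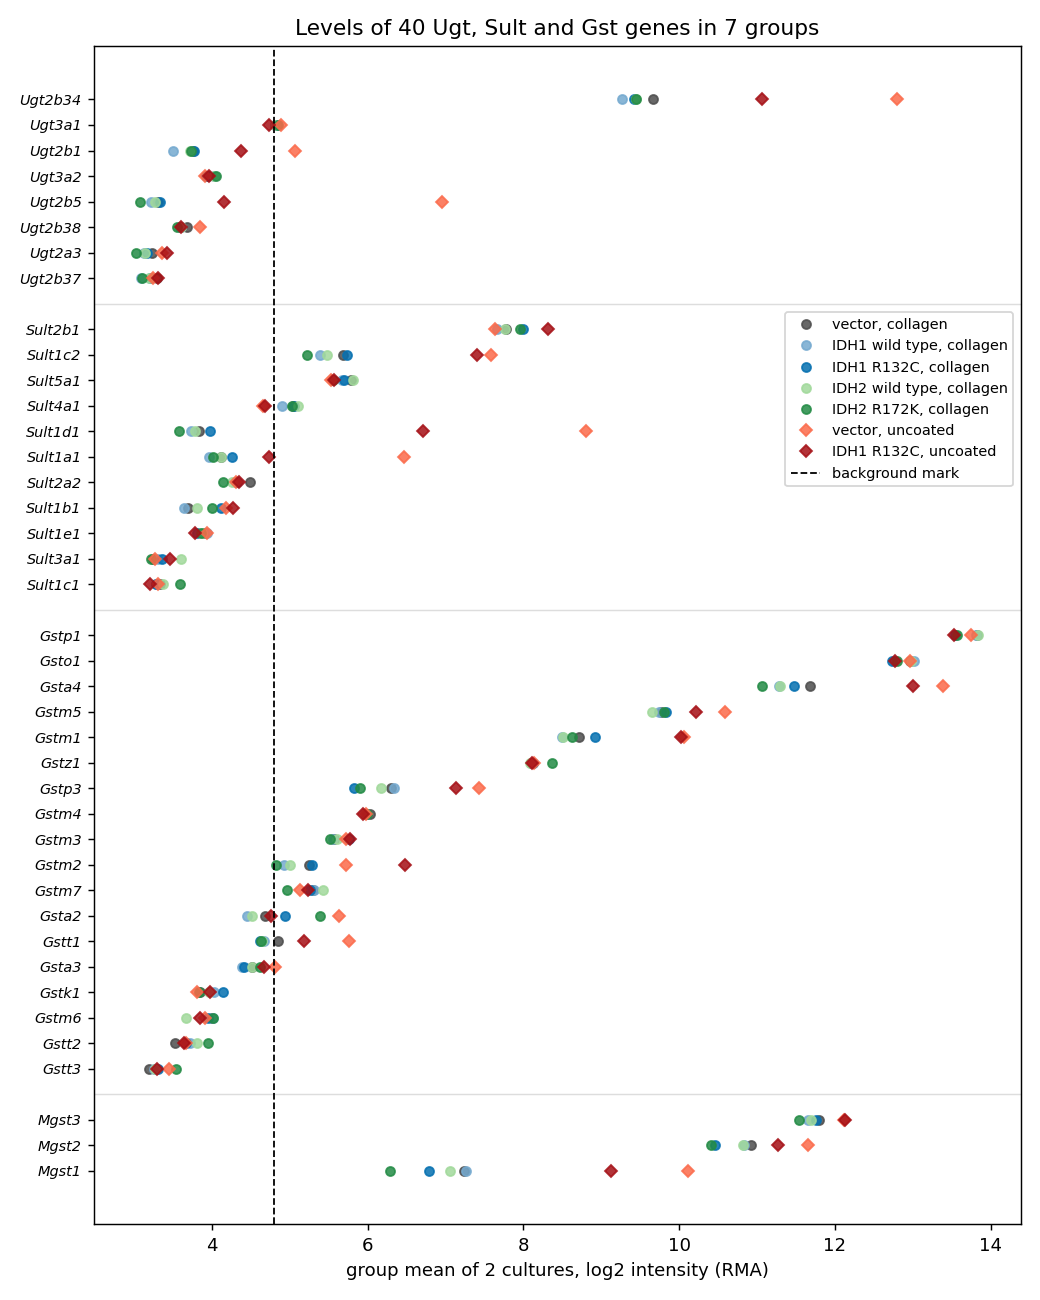
Group means (2 cultures each) of the 40 genes on the log2 intensity scale (x axis), with genes in rows grouped as Ugt, Sult, cytosolic Gst and Mgst. Circles are collagen groups, diamonds are uncoated groups, and the dashed line is the background mark at log2 4.80. The uncoated vector cultures lie to the right of all collagen groups for Ugt2b34, Ugt2b5, Sult1d1, Sult1a1, Sult1c2, Gsta4 and Mgst1, while 13 genes lie left of the line throughout.

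The 40 genes differed widely in whether they were detected. Group means lay above the background mark in all 7 groups for 18 genes, in some groups for 9, and in none for 13. The 13 that stayed near background had group means of 3.03 to 4.49. They were Ugt2a3, Ugt2b37, Ugt2b38 and Ugt3a2 among the glucuronosyltransferases, Sult1b1, Sult1c1, Sult1e1, Sult2a2 and Sult3a1 among the sulfotransferases, and Gstk1, Gstm6, Gstt2 and Gstt3 among the glutathione transferases. Sult1e1, the oestrogen sulfotransferase, was thus not above background in any group, nor was Sult2a2, which sulfates steroids. Of the 40, 10 lay above the array medians in every group and 14 did so in at least 1. The number of members near background was 14 in uncoated vector cultures and 19 or 20 in every other group. Group means were at least 1 log2 unit apart for 14 genes. The highest group was the uncoated vector cells for 13 of these, and the uncoated R132C cells for Gstm2.

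Promoters are shown for the 4 genes with the clearest difference between vector and R132C cells on uncoated plates and, beside them, for 2 neighbours of the same chromosome that stayed near background (Sult1e1 and Ugt2b37). Each runs from 250 bases before to 50 after the start of transcription in RefSeq (assembly GRCm38.p6), and all 6 genes lie on the minus strand. The window is chr5:87568957-87569256 for Sult1d1, chr7:126676369-126676668 for Sult1a1, chr5:87140291-87140590 for Ugt2b5, chr5:86906888-86907187 for Ugt2b34, chr5:87591562-87591861 for Sult1e1 and chr5:87254739-87255038 for Ugt2b37. Capitals mark matches, on either strand, to any of 5 short motifs that are described below.
Sult1d1: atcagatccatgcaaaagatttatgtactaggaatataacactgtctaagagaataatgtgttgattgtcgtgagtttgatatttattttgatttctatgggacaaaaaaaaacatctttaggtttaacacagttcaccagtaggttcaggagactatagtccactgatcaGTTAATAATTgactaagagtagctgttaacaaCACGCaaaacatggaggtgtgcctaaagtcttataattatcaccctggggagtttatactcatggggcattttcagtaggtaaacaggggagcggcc
Sult1a1: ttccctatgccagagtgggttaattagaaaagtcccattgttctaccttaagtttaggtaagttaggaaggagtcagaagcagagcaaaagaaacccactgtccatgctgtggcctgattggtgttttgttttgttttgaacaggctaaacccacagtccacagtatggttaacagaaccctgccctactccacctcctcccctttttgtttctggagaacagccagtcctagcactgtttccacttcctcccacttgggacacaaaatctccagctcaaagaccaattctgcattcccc
Ugt2b5: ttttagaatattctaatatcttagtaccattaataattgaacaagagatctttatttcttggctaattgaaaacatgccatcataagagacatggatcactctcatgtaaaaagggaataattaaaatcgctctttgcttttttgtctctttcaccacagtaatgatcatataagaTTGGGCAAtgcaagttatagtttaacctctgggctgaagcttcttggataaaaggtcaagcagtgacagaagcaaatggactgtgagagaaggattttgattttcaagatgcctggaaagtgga
Ugt2b34: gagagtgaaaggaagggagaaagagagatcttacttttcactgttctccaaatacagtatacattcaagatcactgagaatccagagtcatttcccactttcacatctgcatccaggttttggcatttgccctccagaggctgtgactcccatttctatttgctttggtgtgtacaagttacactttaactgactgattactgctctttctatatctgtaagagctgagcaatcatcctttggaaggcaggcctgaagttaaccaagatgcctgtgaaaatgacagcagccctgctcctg
Sult1e1: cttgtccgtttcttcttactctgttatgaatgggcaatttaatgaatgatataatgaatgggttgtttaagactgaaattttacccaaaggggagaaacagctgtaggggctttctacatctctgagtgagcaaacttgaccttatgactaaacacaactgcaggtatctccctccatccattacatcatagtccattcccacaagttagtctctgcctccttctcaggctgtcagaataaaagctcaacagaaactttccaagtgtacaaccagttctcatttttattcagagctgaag
Ugt2b37: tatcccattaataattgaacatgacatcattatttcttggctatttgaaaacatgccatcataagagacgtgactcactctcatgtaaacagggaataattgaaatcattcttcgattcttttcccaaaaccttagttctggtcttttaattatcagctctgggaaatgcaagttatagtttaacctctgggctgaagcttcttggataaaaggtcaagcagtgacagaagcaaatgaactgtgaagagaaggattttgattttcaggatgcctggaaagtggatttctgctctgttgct

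The motifs searched were TGACNNNGC (antioxidant response element core), GCGTG (xenobiotic response element core), CAAAGTCCA (HNF4A), TTGCNNAA (C/EBP) and the HNF1 motif, each on both strands and with overlaps between motifs allowed. RefSeq promoters were found for 35 of the 40 genes, 45 in all. The C/EBP letters were in 9 of the 45 (20.0%), against 10.8% of the 32851 promoters of all genes, and those of the xenobiotic response element in 11 (24.4%), against 32.4%. The antioxidant response element core was in 4 (8.89%), against 12.4%. The HNF4A letters matched 1 of the 45, at Sult1b1, and those of HNF1 matched 1, at Sult1d1, against 0.475% and 0.399% of all promoters. Among the promoters shown, capitals in Sult1d1 mark HNF1 and xenobiotic response element letters and those in Ugt2b5 mark C/EBP letters, while the other 4 held no match. A match describes letters in this window and is no measured binding site.

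The sulfotransferases held the largest single response. Sult1d1, a rodent enzyme that sulfates catecholamines, lay near background in every collagen culture, from 3.57 to 4.03. It reached 8.86 and 8.74 in the uncoated vector cultures and 6.52 and 6.90 in the uncoated R132C cultures. All 4 uncoated cultures were above all 10 collagen cultures, and the uncoated vector and R132C cultures did not overlap. In vector cells the rise was 4.97 log2 units (SE 0.15, adjusted p = 8.061e-10), or at least 16.0-fold over the background mark. In R132C cells it was 2.73 (SE 0.15, adjusted p = 2.725e-06), at least 3.75-fold over the mark. A second probe set of Sult1d1 rose by 3.38 in vector cells, so the size of the change depended on the probe set.

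Sult1a1, which sulfates simple phenols, showed a sharper contrast between the cell kinds. Its collagen cultures lay near background at 3.93 to 4.37. The uncoated vector cultures were at 6.58 and 6.35, and the uncoated R132C cultures at 4.55 and 4.92, close to the mark. The rise in vector cells was 2.34 (SE 0.14, adjusted p = 3.733e-07), at least 3.16-fold over the mark. In R132C cells the difference was 0.47 (SE 0.14, adjusted p = 0.0230), with both group means near background, and the call was lost without R132C collagen replicate 2 (adjusted p = 0.167) or R132C uncoated replicate 2 (adjusted p = 0.260).

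Sult1c2, a sulfotransferase of the 1C subfamily, rose to a like level in both. Collagen cultures lay between 4.97 and 5.92, the uncoated vector cultures at 7.62 and 7.55, and the uncoated R132C cultures at 7.23 and 7.57. The change was 1.90 (SE 0.21, 3.72-fold) in vector cells and 1.66 (SE 0.21, 3.16-fold) in R132C cells. The uncoated vector and R132C cultures overlapped for this gene. Sult1b1, which sulfates thyroid hormones, passed the test in vector cells (0.49, adjusted p = 0.0465) although both group means lay near background, and it lost the call in 10 of 20 other settings.

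Sult2b1, the enzyme that sulfates cholesterol, was not called between plates in vector cells (-0.14) or in R132C cells (0.32, adjusted p = 0.0986). Its vector cultures were at 7.69 and 7.86 on collagen and 7.76 and 7.52 uncoated. The R132C cultures were at 8.07 and 7.92 on collagen and at 8.29 and 8.34 uncoated, so the uncoated R132C cultures were the highest of the 14. The remaining members of the family, Sult4a1, Sult5a1, Sult2a2, Sult3a1, Sult1c1 and Sult1e1, likewise passed in neither plate comparison. Counted together, 4 of 11 sulfotransferases rose in vector cells and 3 of 11 in R132C cells.

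Among the glucuronosyltransferases, Ugt2b34 was well above background everywhere. Its collagen cultures lay at 9.13 to 9.84, the uncoated vector cultures at 12.92 and 12.68, and the uncoated R132C cultures at 10.69 and 11.45. The rise was 3.14 (SE 0.22, 8.81-fold, adjusted p = 1.097e-06) in vector cells and 1.65 (SE 0.22, 3.13-fold, adjusted p = 0.000206) in R132C cells. A second probe set gave 2.94 in vector cells. The uncoated vector and R132C cultures did not overlap.

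Ugt2b5 went from near background to a clear signal in vector cells, and in R132C cells it stayed near the mark. Collagen cultures lay at 2.92 to 3.46, the uncoated vector cultures at 7.25 and 6.65, and the uncoated R132C cultures at 3.83 and 4.47. The rise in vector cells was 3.64 (SE 0.22, adjusted p = 3.842e-07), at least 4.43-fold over the mark. The difference in R132C cells was 0.82 (SE 0.22, adjusted p = 0.0138), with both group means near background. That call was lost without R132C uncoated replicate 2, where the difference was 0.50 (adjusted p = 0.180), without R132C collagen replicate 1 (adjusted p = 0.116), and with an offset of 32 added to the intensities (adjusted p = 0.131).

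Ugt2b1 had the same order at a lower signal. Collagen cultures lay at 3.48 to 3.97, the uncoated vector cultures at 5.28 and 4.86, and the uncoated R132C cultures at 4.30 and 4.46. The difference was 1.31 (SE 0.15, adjusted p = 5.027e-05) in vector cells, at least 1.20-fold over the mark, and 0.61 (adjusted p = 0.0108) in R132C cells, where both means were near background. Ugt2b37, Ugt2b38, Ugt2a3, Ugt3a1 and Ugt3a2 passed in neither. In all, 3 of 8 glucuronosyltransferases rose in each cell kind. Ugt2b genes are close relatives of each other, as are Gstm genes, and signal shared between their probe sets was not tested.

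**Figure D2:**
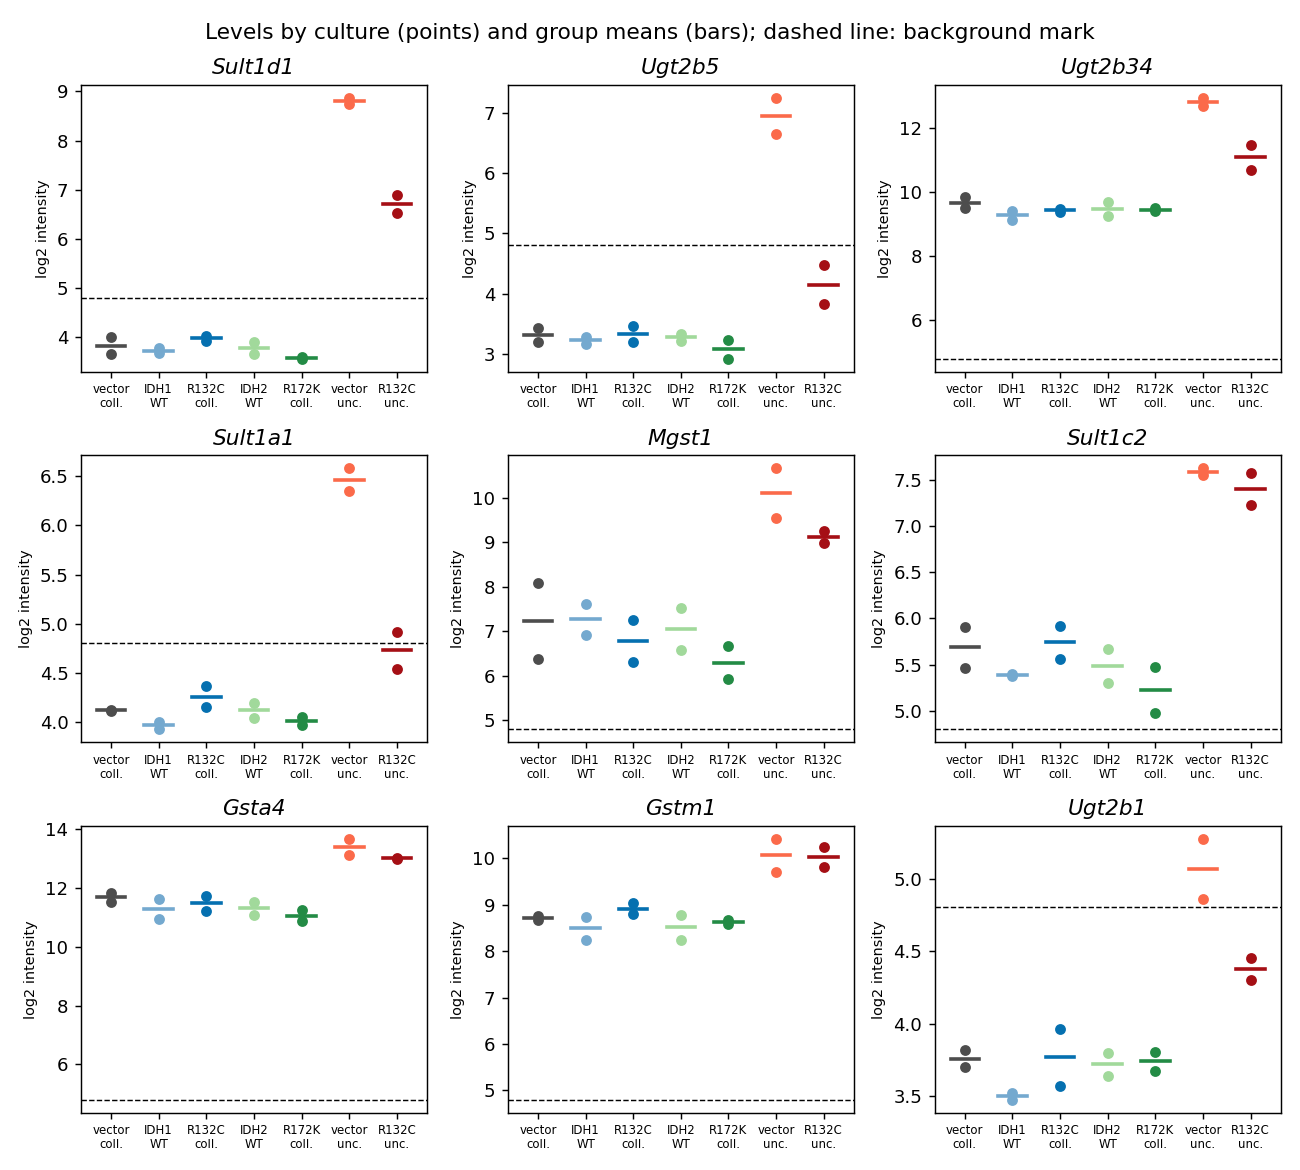
Log2 intensity (y axis) of each of the 14 cultures for the members that moved most, with groups along the x axis, points for cultures and the background mark as a dashed line. For Sult1d1, Ugt2b5, Ugt2b34 and Sult1a1 the uncoated vector cultures stand above the uncoated R132C cultures, and for Sult1c2, Gsta4 and Gstm1 the uncoated groups lie near each other.

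Members on chromosome 5 were neighbours. In RefSeq, 13 protein-coding genes ran from Ugt2b34 to Sult1e1, of which 9 were members and 4 (Ugt2b35, Ugt2b36, Ugt2a1 and Ugt2a2) had no probe set with a single symbol. The order was Ugt2b34, Ugt2b1, Ugt2b35, Ugt2b36, Ugt2b5, Ugt2b37, Ugt2a3, Ugt2b38, Ugt2a1, Ugt2a2, Sult1b1, Sult1d1 and Sult1e1. Genes that rose stood next to genes that passed no test. In vector cells 5 of the 9 rose, where 15.1% of all genes did. In R132C cells 4 of the 9 rose, where 13.6% of all genes did. Both group means lay near background for Sult1b1 in vector cells and for Ugt2b5 and Ugt2b1 in R132C cells. Ugt2b37, Ugt2a3, Ugt2b38 and Sult1e1 passed in neither. The genes on either side were not called in vector cells, with a change of 0.09 at Ythdc1 and of -0.02 to 0.09 at the 4 casein genes Csn1s1, Csn2, Csn1s2a and Csn1s2b.

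**Figure D3:**
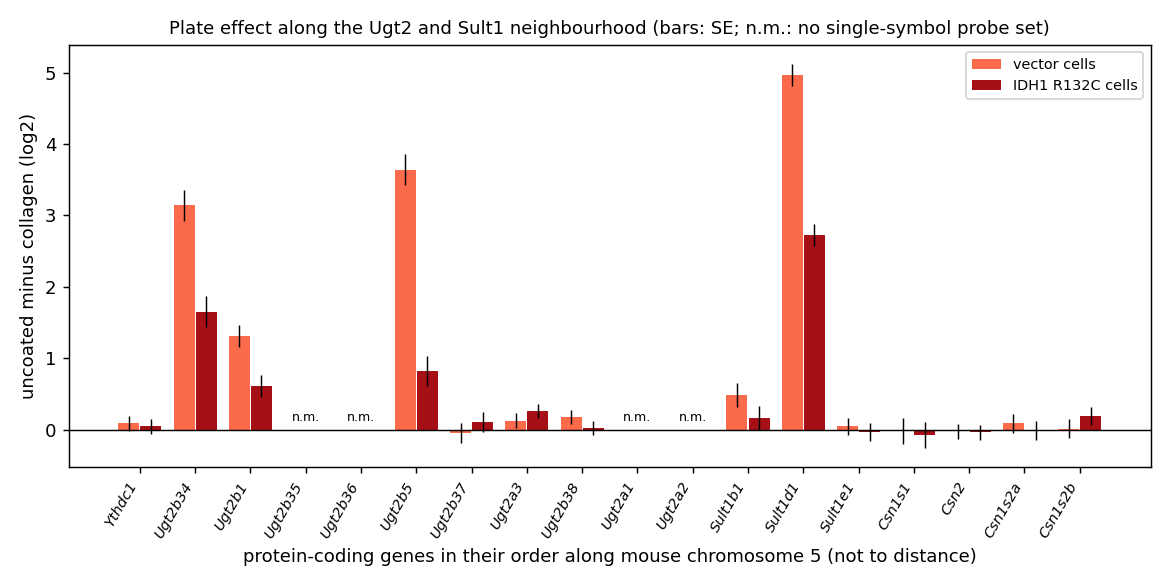
Plate effect (uncoated minus collagen, log2, with SE bars) on the y axis for genes in their RefSeq order along chromosome 5 on the x axis, in vector and in R132C cells. Genes with no single-symbol probe set are left blank. Sult1d1, Ugt2b5 and Ugt2b34 have the highest values in both cell kinds, Ugt2b1 and Sult1b1 have lower ones, and Ugt2b37, Ugt2b38, Sult1e1, the casein genes and Ythdc1 lie near 0.

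Among the cytosolic glutathione transferases Gsta4 had the largest rise. This enzyme, which takes up lipid aldehydes made by peroxidation, lay at 10.88 to 11.82 in collagen cultures. Its values were 13.66 and 13.12 in the uncoated vector cultures and 12.99 and 13.02 in the uncoated R132C cultures. The rise was 1.71 (SE 0.25, 3.28-fold, adjusted p = 0.000200) and 1.53 (SE 0.25, 2.88-fold, adjusted p = 0.000698). Every uncoated culture was above every collagen culture.

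Of the mu class, which conjugates many electrophiles, Gstm1 lay at 8.24 to 9.04 on collagen, at 10.41 and 9.71 in uncoated vector cultures and at 10.23 and 9.81 in uncoated R132C cultures. It rose by 1.35 (SE 0.24, adjusted p = 0.000953) in vector cells and by 1.11 (SE 0.24, adjusted p = 0.00457) in R132C cells. The other 3 probe sets of Gstm1 rose by 0.86 to 1.31 in vector cells. Gstm5 lay at 9.53 to 9.99 on collagen and at 10.82 and 10.35 in uncoated vector cultures, with a rise of 0.82 (adjusted p = 0.00349), and at 10.33 and 10.10 in uncoated R132C cultures, where 0.39 did not pass (adjusted p = 0.131). The vector call of Gstm5 was lost without vector collagen replicate 1 (0.60, adjusted p = 0.0508) and without vector uncoated replicate 1 (0.59, adjusted p = 0.0563).

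Gstm2 showed the opposite order of the cell kinds. Its collagen cultures lay at 4.37 to 5.49, the uncoated vector cultures at 6.20 and 5.26, and the uncoated R132C cultures at 6.73 and 6.24. It passed in R132C cells (1.20, SE 0.32, adjusted p = 0.0153) and not in vector cells (0.48, adjusted p = 0.321). The difference between these effects was 0.72 (95% interval -0.27 to 1.71), so the larger response in R132C cells was not established. The R132C call was lost without either R132C collagen culture (adjusted p = 0.0910 and 0.0598) or R132C uncoated replicate 1 (adjusted p = 0.115). Gstm3, Gstm4, Gstm6 and Gstm7 passed in neither, although the genes lie next to Gstm1 on chromosome 3, and the 2 probe sets of Gstm7 differed in sign (-0.17 and 0.38, neither called).

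The pi-class gene Gstp3 lay at 5.73 to 6.70 on collagen, at 7.38 and 7.49 in uncoated vector cultures and at 6.87 and 7.39 in uncoated R132C cultures. It rose by 1.13 (SE 0.25, adjusted p = 0.00371) and by 1.31 (SE 0.25, adjusted p = 0.00184), and the vector call was lost without vector collagen replicate 1 (0.83, adjusted p = 0.0541). Gstt1 of the theta class, which acts on small halogenated compounds, was at 4.36 to 5.02 on collagen, at 5.76 and 5.75 in uncoated vector cultures and at 5.10 and 5.26 in uncoated R132C cultures. Its rise was 0.91 (SE 0.16, adjusted p = 0.00100) in vector cells and 0.56 (SE 0.16, adjusted p = 0.0224) in R132C cells. The R132C call of Gstt1 was lost without either R132C collagen culture or R132C uncoated replicate 2 (adjusted p = 0.0810 to 0.158).

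Gsta2 varied as much between replicates as between plates in vector cells. Its uncoated vector cultures were at 6.34 and 4.92, its uncoated R132C cultures at 4.79 and 4.74, and its collagen cultures at 4.31 to 5.67. The difference of 0.94 in vector cells did not pass (SE 0.42, adjusted p = 0.115). A separate probe set, annotated to Gsta2, Gsta1 and Gm3776 together, rose by 3.42 in vector cells and is described further below. Gstp1, Gsto1 and Gstz1, the last an enzyme of tyrosine breakdown, were not called between plates, with differences of -0.07, 0.00 and 0.03 in vector cells and of -0.02, 0.04 and -0.01 in R132C cells. Together, 5 of 18 cytosolic glutathione transferases rose in vector cells and 5 of 18 in R132C cells.

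The microsomal transferases are membrane proteins, of which 2 of 3 rose in vector cells and 3 of 3 in R132C cells. Mgst1, which also reduces lipid peroxides, was at 5.92 to 8.10 in collagen cultures, at 10.66 and 9.55 in uncoated vector cultures and at 9.25 and 8.99 in uncoated R132C cultures. The vector collagen replicates themselves were at 6.37 and 8.10. The rise of 2.87 in vector cells (7.32-fold) had an SE of 0.54 (adjusted p = 0.00132), and that of 2.34 in R132C cells (5.06-fold) an adjusted p of 0.00643. The R132C call was lost without R132C collagen replicate 1 (1.87, adjusted p = 0.0771). A second probe set of Mgst1 stayed at a mean of 3.73, near background, and did not move.

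Mgst2, which can join glutathione to leukotrienes, lay at 10.30 to 11.00 on collagen, at 11.74 and 11.57 in uncoated vector cultures and at 11.20 and 11.35 in uncoated R132C cultures. The rise was 0.72 (SE 0.11, adjusted p = 0.000285) and 0.82 (SE 0.11, adjusted p = 0.000218). Mgst3 was called in R132C cells (0.37, adjusted p = 0.0362) and not in vector cells (0.31, adjusted p = 0.0651). The mean of its probe sets gave 0.10 in R132C cells (adjusted p = 0.622), so the R132C call rested on the chosen probe set.

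In the comparison of plates, 12 members rose in both cell kinds, as did 10.8% of all genes, and for 3 of the 12 (Ugt2b5, Ugt2b1 and Sult1a1) both R132C group means lay near background. Gstm5 and Sult1b1 passed in vector cells alone and Gstm2 and Mgst3 in R132C cells alone. Both comparisons rest on different arrays. Of the 16 called in either, 12 had a smaller change in R132C cells and 4 (Gstp3, Mgst2, Gstm2 and Mgst3) a larger one. Changes of at least 2-fold numbered 10 in vector cells and 8 in R132C cells. The shares of all genes for this split and at 2-fold are not given here. These counts are therefore not read as a result about the members. Over all 40 members the median change was 0.16 in vector cells and 0.10 in R132C cells, beside -0.02 and -0.03 over all genes.

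The difference between the plate effects, R132C minus vector, passed for 3 members, all lower, where 0.25% of all genes passed. Ugt2b5 differed by -2.82 (SE 0.31, adjusted p = 0.000808), Sult1d1 by -2.24 (SE 0.22, adjusted p = 0.000416) and Sult1a1 by -1.87 (SE 0.19, adjusted p = 0.000722). These 3 were called whichever array was left out. Ugt2b34 had a difference of -1.49 (95% interval -2.16 to -0.82) that did not pass over all genes (adjusted p = 0.0882). Ugt2b1 differed by -0.70 (95% interval -1.17 to -0.23, adjusted p = 0.440). No glutathione transferase passed: the difference was -0.53 for Mgst1 (95% interval -2.18 to 1.11), -0.19 for Gsta4 (-0.94 to 0.57), -0.24 for Gstm1 (-0.98 to 0.50) and 0.18 for Gstp3 (-0.57 to 0.93). Sult1c2 differed by -0.24 (-0.87 to 0.40). These intervals leave room for unequal responses of those genes too.

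**Figure D4:**
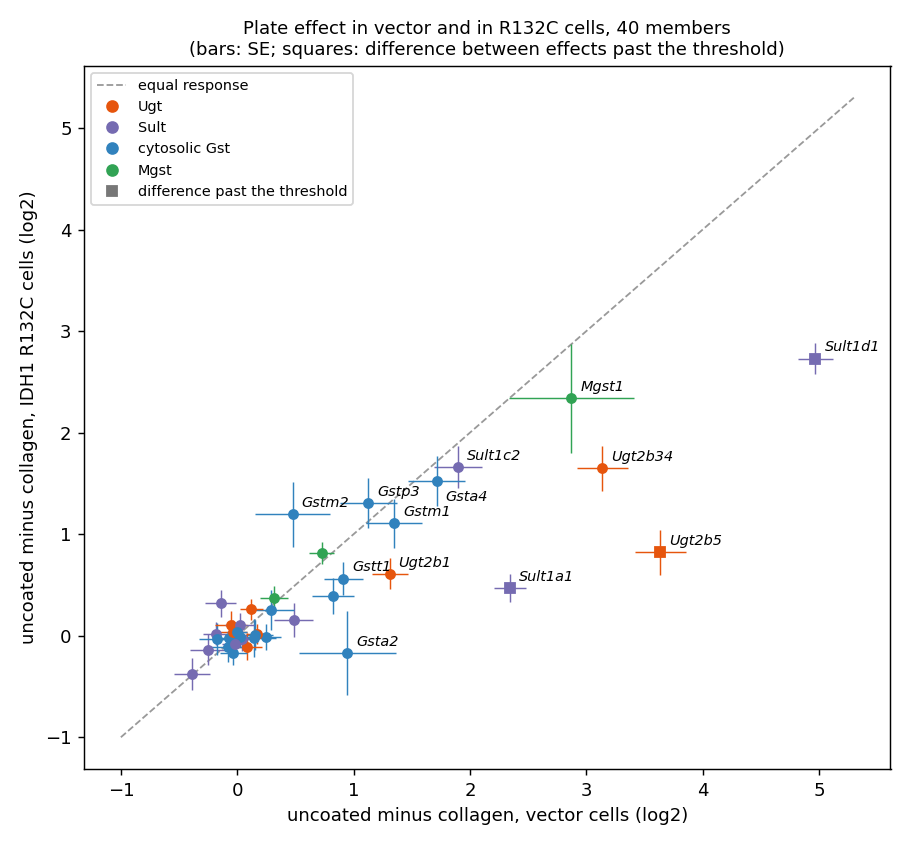
Plate effect in R132C cells (y axis) against that in vector cells (x axis), both uncoated minus collagen in log2 units with SE bars, for the 40 genes, coloured by class. Squares mark Ugt2b5, Sult1d1 and Sult1a1, whose 2 effects differed past the threshold and which lie below the dashed line of equal response, while Mgst1, Sult1c2, Gsta4, Gstm1 and Gstp3 lie near it.

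Set side by side on uncoated plates, R132C cells had lower levels than vector cells for 5 members, where 1.49% of all genes were lower, and a higher level for 1, where 0.896% were higher. The group means were 4.15 and 6.95 for Ugt2b5 (-2.80, adjusted p = 1.501e-05), 6.71 and 8.80 for Sult1d1 (-2.09, adjusted p = 1.368e-05), 11.07 and 12.80 for Ugt2b34 (-1.73, 3.32-fold, adjusted p = 0.00102), and 4.73 and 6.46 for Sult1a1 (-1.73, adjusted p = 1.785e-05). Sult1d1 was 4.26-fold lower. Ugt2b5 and Sult1a1 lay near background in R132C cells, so they were at least 4.43-fold and at least 3.16-fold lower. Ugt2b1 was lower by a smaller amount (-0.69, adjusted p = 0.0368), and its call was lost in 8 of 20 other settings, among them without vector uncoated replicate 1 (adjusted p = 0.418) and without R132C uncoated replicate 1 (adjusted p = 0.333). Sult2b1 was higher in R132C cells (0.68, 1.60-fold, adjusted p = 0.0205), and lost the call in 4 settings, with adjusted p up to 0.138. All 5 lower members are glucuronosyltransferases and sulfotransferases. Of the 21 glutathione transferases 0 were called, where 2.39% of all genes were called in either direction. Their differences ran from -0.99 to 0.76, and a contrast between the classes was not tested.

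Several marker genes of other cell types moved with these members. Among the 9 hepatocyte markers transthyretin (Ttr) had a mean of 6.08 in vector cells on collagen, 9.14 in vector cells uncoated and 7.41 in R132C cells uncoated. Apoa1 was at 6.19, 5.85 and 6.07 in the same groups, and the remaining 7 had group means of at most 4.94. The summed intensity of the 9, which follows Ttr, was 232.4 to 277 in collagen cultures, 662 to 849 in uncoated vector cultures and 351.6 to 359.8 in uncoated R132C cultures. Summed intensity of the 7 intestinal markers was 2420 to 10210 on collagen, 22920 to 25960 in uncoated vector cultures and 13780 to 19120 in uncoated R132C cultures, while Fabp1 stayed near background. Biliary markers were mixed. Sox9 was at 7.36 in vector cells on collagen and 9.38 uncoated, Aqp1 at 3.95 and 5.65, and Cftr at 3.63 and 4.25, while Krt7 was at 13.20 and 12.36 and Krt19 at 13.88 and 13.61. The biliary sum, which follows the bright keratins, was 23170 to 27300 on collagen, 17390 to 19670 in uncoated vector cultures and 20450 to 21050 in uncoated R132C cultures. Sums of the endothelial, mesenchymal and blood lists stayed at or below 301.8 in every culture. Of the blood markers, Ptprc had means of 4.47 in vector cells on collagen, 6.20 in vector cells uncoated and 5.35 in R132C cells uncoated, and the blood sum of the vector cells was 200.8 to 237.8 and 240.8 to 292.8. The part of these markers in the changes of the conjugating enzymes was not tested.

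Genes that supply the donors of the conjugating enzymes changed in both directions. For the list counts that follow, the shares of all genes were 15.1% higher and 14.2% lower in vector cells, and 13.6% and 12.3% in R132C cells. In the list for UDP-glucuronic acid 1 of 7 rose and 1 fell in vector cells: Ugp2, which makes UDP-glucose, rose by 0.33 and Uxs1, which uses UDP-glucuronic acid up, fell by 0.36. Ugdh, the enzyme that makes UDP-glucuronic acid, had group means of 12.87 to 12.97 throughout. In the list for PAPS and sulfate 4 of 14 rose and 1 fell in vector cells. Those that rose were Sumf1, the activator of sulfatases (0.94), the sulfate transporter Slc26a2 (0.87), the lysosomal sulfatase Arsa (0.81) and the PAPS transporter Slc35b2 (0.52), while the protein sulfotransferase Tpst1 fell by 0.80. The same 5 genes passed in the same directions in R132C cells, and the 2 PAPS synthases passed in neither.

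For glutathione supply and recycling, 6 of 24 rose and 4 fell in vector cells. Gclc, which limits glutathione synthesis, rose by 0.96 and glutaredoxin (Glrx) by 1.46, whereas glutathione reductase (Gsr) fell by 0.69 and cystathionine gamma-lyase (Cth), which makes cysteine, fell by 2.58. In R132C cells 4 rose and 3 fell, with Gclc up 0.70, Glrx up 1.32 and Gsr down (-0.41). Members of the NRF2 list moved both ways, with 7 of 21 up and 5 down in vector cells and 7 up and 4 down in R132C cells. Cbr3 rose by 0.98 and Hmox1 by 0.77 in vector cells, and Txnrd1 and Abcc1, targets of the same factor, fell by 0.82 and 0.81. List medians in vector cells were 0.03, 0.15, -0.09 and 0.24 for these 4 lists in the order given, beside -0.02 over all genes.

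A further list held xenobiotic receptors, liver factors, the intestinal marker Cdx2, and aryl hydrocarbon receptor targets such as Cyp1a1 and Cyp1b1. Of its 18 genes 7 rose and 1 fell in vector cells, and 2 rose and 0 fell in R132C cells. The 7 included Cyp1a1 (0.98) and Cyp1b1 (0.61), which are cytochrome P450 enzymes. The 1 that fell was Ahr, the aryl hydrocarbon receptor itself (-0.34). Ahrr (0.24) and Tiparp (0.28) of the same list were not called in vector cells. In R132C cells neither Cyp1a1 (-0.55) nor Cyp1b1 (-0.19) was called. Cebpa, a hepatocyte factor, rose by 2.73 (SE 0.20, adjusted p = 1.741e-06) in vector and by 1.95 (SE 0.20, adjusted p = 5.817e-05) in R132C cells. Nr1i2, the pregnane X receptor, had a mean of 4.32 in vector cells on collagen and of 5.61 uncoated, at least 1.75-fold over the background mark (adjusted p = 5.758e-05), and in R132C cells it lay near background on both plates. On uncoated plates Nr1i2 (at least 1.75-fold), Cdx2 (-1.17) and Cyp1a1 (-1.59) were lower in R132C than in vector cells. These were the 3 of 18 called, where 1.49% of all genes were lower. No gene of these 5 lists passed in the difference between plate effects, where 0.25% of all genes did.

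In a list of conjugating enzymes outside the families and of related genes, Hpgds also rose on uncoated plates. Hpgds is a prostaglandin D synthase of the glutathione transferase superfamily. Its collagen group means were 3.63 to 4.13, near background, and its uncoated means were 6.75 in vector and 5.44 in R132C cells. It rose at least 3.85-fold over the background mark in vector cells (adjusted p = 1.445e-06) and at least 1.56-fold in R132C cells (adjusted p = 0.000202). On uncoated plates it was lower in R132C than in vector cells (-1.31, adjusted p = 0.00405). That list also held genes that are not conjugating enzymes, such as Clic1, Clic4 and Alox5ap. In it 4 of 28 rose and 3 fell in each cell kind, and its median was 0.00 in vector cells. Clic4 was among those that fell (-0.60 in vector and -0.69 in R132C cells).

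On collagen the levels of the members lay close together across the 5 kinds of cell. Group means were within 0.5 log2 units for 34 of 40, and the median range over groups was 0.30. The other 6 were Gsta2, Gsta4, Gstp3, Mgst1, Mgst2 and Sult1c2, with ranges up to 0.97. In each of these groups 19 or 20 of the 40 members lay near background, where differences are hard to see. The share of all genes within 0.5 log2 units is not given here. Against vector, 0 members were called for wild-type IDH1, wild-type IDH2 and IDH1 R132C by limma, where 0% of all genes were called in each. The members with an unadjusted p under 0.05 numbered 0, 2 and 5, and the share of all genes at that threshold is not given. R172K cells had 1 member called against vector, where 3.12% of all genes were lower: Mgst2 fell by 0.51 (SE 0.11, adjusted p = 0.0234). The call was lost without vector collagen replicate 2 (adjusted p = 0.193), without R172K replicate 1 (adjusted p = 0.128) and with only the arrays compared (adjusted p = 0.240).

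Against their own wild type, 0 members were called for R132C, where 0.0484% of all genes were, and 0 for R172K, where 1.73% were. At an unadjusted p under 0.05 there were 5 members for R132C and 7 for R172K. Without the share of all genes at that threshold, these counts are not read as a result about the members. The comparison for R172K depended on a single array, because leaving out R172K replicate 2 gave 8 called members and leaving out others gave none. Leaving out the same array gave 8 members against vector. The remaining R172K array had the lowest median of the 14.

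Mgst2, Gstp1 and Gsto1 are described next because, after their values were seen, both cultures of each mutant lay below both cultures of its wild type. The same held for Gstp3, at 5.99 and 6.70 with wild-type IDH1 and 5.92 and 5.73 with R132C. Its cultures were at 6.02 and 6.32 with wild-type IDH2 and 5.86 and 5.95 with R172K. For Sult2b1, and for Sult1b1 near background, both cultures of each mutant lay above both cultures of its wild type. None of these members passed for either mutant alone. The share of all genes with such a separation is not given here, so it is not read as a result about the members. Gstp1, the pi-class enzyme, was at 13.78 and 13.83 with wild-type IDH1, 13.56 and 13.53 with R132C, 13.83 and 13.85 with wild-type IDH2 and 13.42 and 13.70 with R172K. Mgst2 was at 10.83 and 10.83, 10.58 and 10.34, 10.82 and 10.82, and 10.30 and 10.53 in that order. Gsto1, which reduces dehydroascorbate, was at 13.01 and 13.01, 12.78 and 12.68, 13.02 and 12.92, and 12.71 and 12.88. The mean of both mutant effects, a comparison added after the values were seen, was -0.39 for Mgst2 (SE 0.08, adjusted p = 0.0182), -0.27 for Gstp1 (SE 0.06, adjusted p = 0.0202) and -0.23 for Gsto1 (SE 0.06, adjusted p = 0.0551). It called 2 members, both lower, where 2.44% of all genes were lower. Both calls were lost when any 1 of the 4 wild-type cultures or R132C replicate 2 was left out, with adjusted p between 0.0592 and 0.0905, that of Gstp1 also without R132C replicate 1 (adjusted p = 0.0827) and that of Mgst2 without R172K replicate 1 (adjusted p = 0.0508). Without R172K replicate 2 there were 5 called members. Mgst1 had a larger mean difference of -0.63 (SE 0.38) that did not pass (adjusted p = 0.448).

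Markers of hepatoblasts and of other cell types were also read in the same groups on collagen. The summed intensity of the intestinal markers was 6150 to 8896 with wild-type IDH1, 4080 to 6575 with R132C, 5831 to 8593 with wild-type IDH2 and 2420 to 4140 with R172K, and group means of Lgals4 were 11.71, 11.00, 11.63 and 9.98 in that order. Those of Cdx2, also an intestinal marker, were 9.46, 9.59, 9.46 and 9.44. The hepatoblast markers were mixed. Group means of Epcam were 9.19, 8.63, 9.26 and 8.32, and those of Hnf4a 11.52, 11.11, 11.53 and 10.88. Afp went the other way, at 10.57, 11.52, 10.65 and 11.38. The part of these markers in the values of Mgst2, Gstp1 and Gsto1 was not tested.

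**Figure D5:**
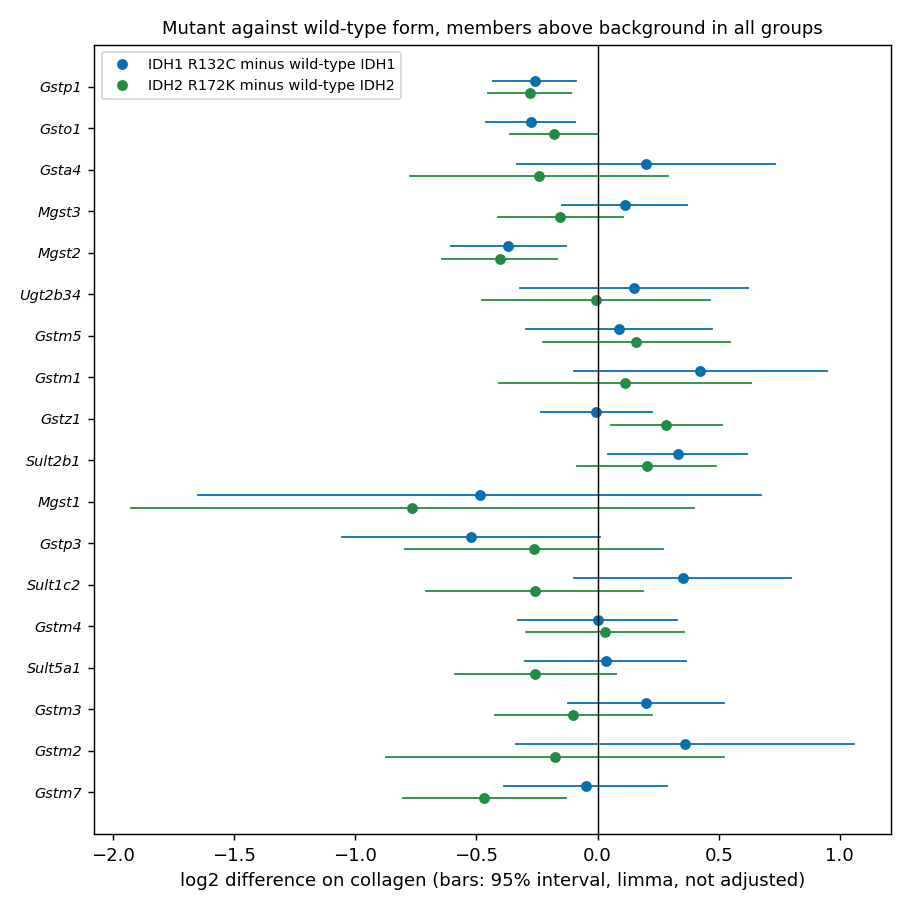
Difference between each mutant and its wild-type form on collagen (x axis, log2, with bars for the unadjusted 95% interval) for the 18 members above background in all groups (rows). Gstp1, Gsto1 and Mgst2 lie left of 0 for both mutants, as do Gstp3, Mgst1 and Gstm7. Sult2b1, Gstm1 and Gstm5 lie right of 0 for both. Most members other than Gstp1 and Mgst2 have intervals that span 0 for at least 1 mutant, and that of Gsto1 for R172K reaches 0.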

How the data were processed

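Biotin-labelled RNA from 14 cultures was read on Affymetrix Mouse 430Av2 arrays. The authors deposited 1 intensity per probe set, made with RMA, per the submitters' processing notes, whose version and settings are not given in the sources used here. They ran from 5.84 to 26770, a linear scale, so log2 was taken. Detection calls were not used here.

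Of 22690 probe sets 64 were controls, 20380 had 1 gene symbol, 691 several and 1555 none. The brightest single-symbol probe set on average stood for each of 12393 genes. Group means of all 14 arrays were fitted with limma 3.58.1 in R 4.3.3 (eBayes with an intensity trend, 7 residual and 5.67 prior degrees of freedom). Adjusted p is Benjamini-Hochberg over all genes within a comparison, with a threshold of 0.05, and "rose" or "fell" is used of genes past it. The fit was tested on simulated data. Where 1 group lay near background, "at least" folds were taken against the background mark of log2 4.80. Values in every culture are given for members with the largest changes past the threshold, with the highest level of their family, or with group means at least 1 log2 unit apart.

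Members and lists were chosen with earlier results of these data known. All 40 symbols were found in RefSeq (GRCm38.p6), which served for names, gene order and promoters, since the files name no build. Alternatives were the mean of probe sets, dim genes left out (under the 0.30 quantile of level), cyclic loess, an offset of 32, no intensity trend, a replicate block, the arrays compared alone and each array left out. Intensities of different probe sets were not compared with each other. The replicate numbers were taken as names only, since their deviations correlated at -0.04 to 0.49 over 21 pairs of groups, 13 of them over 0.1.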

Additional observations from a re-analysis of the deposited data

Results flagged for a closer look

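The response to uncoated plates differed between R132C and vector cells for 3 members by a test of the difference itself, namely Ugt2b5 (-2.82 on the log2 scale), Sult1d1 (-2.24) and Sult1a1 (-1.87). Among the 10 collagen cultures, both R132C cultures lay above both wild-type IDH1 cultures for Sult1d1 and both R172K cultures lay below both wild-type IDH2 cultures. The difference between these mutant effects was 0.45 (adjusted p = 0.839 by limma), all of it at levels near background.

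Probe sets annotated to several genes were outside the comparisons above, and 4 of the 5 in these families moved with the plate in vector cells. Of the 3 annotated to 8 genes of the Ugt1 family, 1424783_a_at rose by 2.34, 1426260_a_at by 2.25 and 1426261_s_at by 2.84 in vector cells. Their group means went from 10.05 to 12.39, from 10.85 to 13.10 and from 8.95 to 11.79. In R132C cells they rose by 1.82, 1.80 and 2.05. Which Ugt1 gene the signal came from cannot be told apart on these probe sets. The probe set 1421041_s_at, annotated to the 3 genes Gsta2, Gsta1 and Gm3776, rose by 3.42 in vector cells (adjusted p = 0.0197). The difference of 1.69 for this probe set in R132C cells did not pass (adjusted p = 0.253). Its replicates varied widely, with an SD of 1.92 in vector cells on collagen (n = 2).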

How the results depend on the processing

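Over 21 settings and 822 member-level tests, 761 kept the direction and side of the threshold, 61 kept the direction and lost the call, and 0 reversed. Leaving dim genes out changed the count of called members from 14 to 8 for the plate effect in vector cells, 14 to 9 in R132C cells, 3 to 0 for their difference and 6 to 2 between R132C and vector uncoated, since Ugt2b5, Sult1d1, Sult1a1 and other dim members were then not tested. For R172K against vector, 1 became 2 with a replicate block and 0 with only the arrays compared. For both mutants against their wild types, 2 became 4 with a replicate block, and 1 without the intensity trend and with only the arrays compared. With the block no named member lost a call.

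With 1 array left out, called members numbered 11 to 16 in vector cells, 9 to 14 in R132C cells, 3 to 4 for the difference, 4 to 8 for R132C against vector uncoated, 0 to 8 for R172K against wild-type IDH2 and against vector alike, 0 to 5 for both mutants, and 0 for the remaining comparisons. In R132C cells the count of 9 came without R132C collagen replicate 2 or R132C uncoated replicate 2. The lone array of a group was then assumed to vary like the other groups. With 2 arrays per group, small changes and levels near background are measured with little precision.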
